A study of Homo sapiens with 4 samples.

Results

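The miR-200 family and miR-205-5p, miRNAs tied to the epithelial state of cells, were followed through 4 small RNA libraries of 2 colorectal cancer lines. The members were chosen by name and not by a rule on their values, though with earlier results of these data known. They are the 9 listed arms of the miR-200 family, which come from a cluster of miR-200b, miR-200a and miR-429 and a cluster of miR-200c and miR-141, and miR-205-5p. These are 10 of 2080 miRNA names, and all 10 are listed in all 4 libraries. In the order of hairpins they are hsa-miR-200b-3p, hsa-miR-200b-5p, hsa-miR-200a-3p, hsa-miR-200a-5p, hsa-miR-429, hsa-miR-200c-3p, hsa-miR-200c-5p, hsa-miR-141-3p, hsa-miR-141-5p and hsa-miR-205-5p, written below without the prefix for human. HT29 and HCT15 are established lines of human colorectal adenocarcinoma, and each was sampled as spheres and as parental cells. The groups were HT29 spheres, HT29 parental cells, HCT15 spheres and HCT15 parental cells, with 1 library each and no replicate. Spheres of both lines grew in DMEM-F12 to which N2 Plus Supplement, bFGF and EGF (each at 10 ng/ml) were added, and the submitters call them sphere-derived cancer stem cells. Parental HT29 grew in DMEM and parental HCT15 in RPMI, each with 10% FBS. The base medium, the added factors and the sphere form thus differ together between the cultures and cannot be told apart. Sphere cultures are named by how they were grown, and the labels give no marker by which stem cells were sorted.

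Listed miRNA reads came to 12794274 in HT29 spheres and 5806540 in HT29 parental cells. For HCT15, whose values were deposited as RPKM, read equivalents came to about 2317523 in spheres and 3184513 in parental cells. Checked against markers, the colon epithelial miRNAs miR-192-5p, miR-194-5p and miR-375 were present in all 4 libraries, at 77.7 CPM or more. The 7 stromal markers, such as miR-143-3p, summed to 8.13 and 7.58 CPM in HT29 spheres and parental cells and 29.3 and 28.8 CPM in those of HCT15. Of the stromal markers, 2 and 3 of 7 were at 0 in HT29 spheres and parental cells and 4 and 3 of 7 in those of HCT15. The 5 blood markers summed to 376 and 402 CPM in HT29 and to 1.73 and 2.83 CPM in HCT15, and miR-223-3p, the myeloid marker among them, was at 0 in every library. The sum in HT29 was mostly miR-142-3p, a miRNA of blood cells, at 367 CPM in spheres and 381 CPM in parental cells. In HCT15, miR-142-3p was at 1.73 and 2.20 CPM. The endothelial marker miR-126-3p was at 147 and 132 CPM in HT29 and at 8.63 and 12.2 CPM in HCT15. CPM means reads scaled to 1000000 listed miRNA reads per library. In a bulk library fewer cells of a type and less RNA per cell cannot be told apart. The printed members are 22 or 23 bases long, so CPM of different members were compared without a correction for length. Differences between arms in ligation or amplification were not tested.

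The miR-200 family is best known for a mutual block with ZEB1 and ZEB2, transcription factors that shut off E-cadherin and drive the epithelial-mesenchymal transition. The miRNAs bind the messenger RNAs of both factors and lower them, while ZEB1 binds the promoters of both miR-200 clusters and silences them, so that epithelial cells hold much miR-200 and mesenchymal cells little. miR-205-5p also targets ZEB1 and ZEB2. It is typical of stratified and basal epithelia such as skin and breast and is scarce in normal colon. A miRNA hairpin gives a 5p and a 3p arm, and for the miR-200 hairpins the 3p arm is the one mostly loaded into Argonaute as the guide.

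The mature sequences are shown because the seed, bases 2 to 8 and in capitals here, sets which messenger RNAs a miRNA pairs with, and because 1 base in it divides the 3p arms. Sequences are those of RefSeq on GRCh38.p14, which held 9 of the 10 members, and are given 5′ to 3′.
miR-200b-3p: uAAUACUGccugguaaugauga
miR-200c-3p: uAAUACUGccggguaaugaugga
miR-429: uAAUACUGucugguaaaaccgu
miR-200a-3p: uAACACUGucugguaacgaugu
miR-141-3p: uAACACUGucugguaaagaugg
miR-200b-5p: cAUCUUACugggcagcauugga
miR-200a-5p: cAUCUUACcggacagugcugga
miR-200c-5p: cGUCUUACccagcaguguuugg
miR-205-5p: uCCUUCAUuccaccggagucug

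The 3p arms thus fall into a group with the seed AAUACUG (miR-200b-3p, miR-200c-3p and miR-429) and a group with AACACUG (miR-200a-3p and miR-141-3p). Perfect sites for these seeds read CAGUAUU and CAGUGUU in a messenger RNA. Counted from 1 at the 5′ end, miR-200b-3p and miR-200c-3p differ by U11G and A22G over 22 compared positions, and miR-200a-3p and miR-141-3p differ by C17A and U22G. Each of these pairs is made of 1 member from either cluster. A read that ends before base 17 can therefore match both miR-200a-3p and miR-141-3p, and an edited read can blur either pair. How the authors assigned such reads is not given. In HCT15 spheres and parental cells, read equivalents were fractional for every guide arm. They were 12611.5 and 14754.5 for miR-200b-3p and 6859.7 and 9112.3 for miR-141-3p. For miR-200a-3p they were 5561.7 and 7779.3, for miR-429 1578.7 and 2259.3, and for miR-200c-3p 2302.3 and 3094.6. For miR-200c-5p, read equivalents were 6.78 and 31. Those of miR-200b-5p, miR-200a-5p, miR-141-5p and miR-205-5p were whole or nearly so. Whether reads were split among miRNAs was not tested. Of the 2080 listed names, 1716 have a mature sequence in the RefSeq table and were searched for the seeds of the 9 members it holds. The seed of miR-205-5p, CCUUCAU, was found in no other of these. The search found 1 other miRNA with a member's seed, miR-550a-3p, which has the GUCUUAC of miR-200c-5p. It was at 4.53 and 23.4 CPM in HT29 spheres and parental cells and at 16.4 and 19.2 CPM in those of HCT15.

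On GRCh38, MIR200B (chr1:1167104-1167198), MIR200A (chr1:1167863-1167952) and MIR429 (chr1:1169005-1169087) lie on the plus strand within 1984 bases, in no other annotated gene of that strand in GENCODE 29. MIR200C (chr12:6963699-6963766) and MIR141 (chr12:6964097-6964191) lie on the plus strand within 493 bases, in an intron of the noncoding gene MIR200CHG. MIR205 (chr1:209432133-209432242, plus strand) overlaps an exon of its noncoding host MIR205HG.

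In both lines the family stayed abundant in spheres. The 9 arms together took 5.31% of listed reads in HT29 spheres and 5.82% in HT29 parental cells. In HCT15 they took 1.36% in spheres and 1.29% in parental cells. HT29 thus held 3.90 times the HCT15 level in spheres and 4.50 times in parental cells, although the values of each line were made and scaled apart from the other's, so no test between lines was run. After TMM scaling, which aligns libraries on their bulk of miRNAs, the summed family had a log2 ratio of spheres over parental cells of 0.45 in HT29 (interval 0.44 to 0.46) and 0.42 in HCT15 (0.40 to 0.44). The intervals here are 95% intervals for counting error and do not cover differences between cultures. With total counts in place of TMM log2 ratios were lower by about 0.58 in HT29 and 0.35 in HCT15, which put the summed family at -0.13 in HT29 and 0.07 in HCT15. The shift was smaller for miRNAs with few reads, such as miR-205-5p in HCT15, which went from 5.13 to 4.83. The direction for the summed family in HT29 therefore depended on the scaling.

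**Figure D1:**
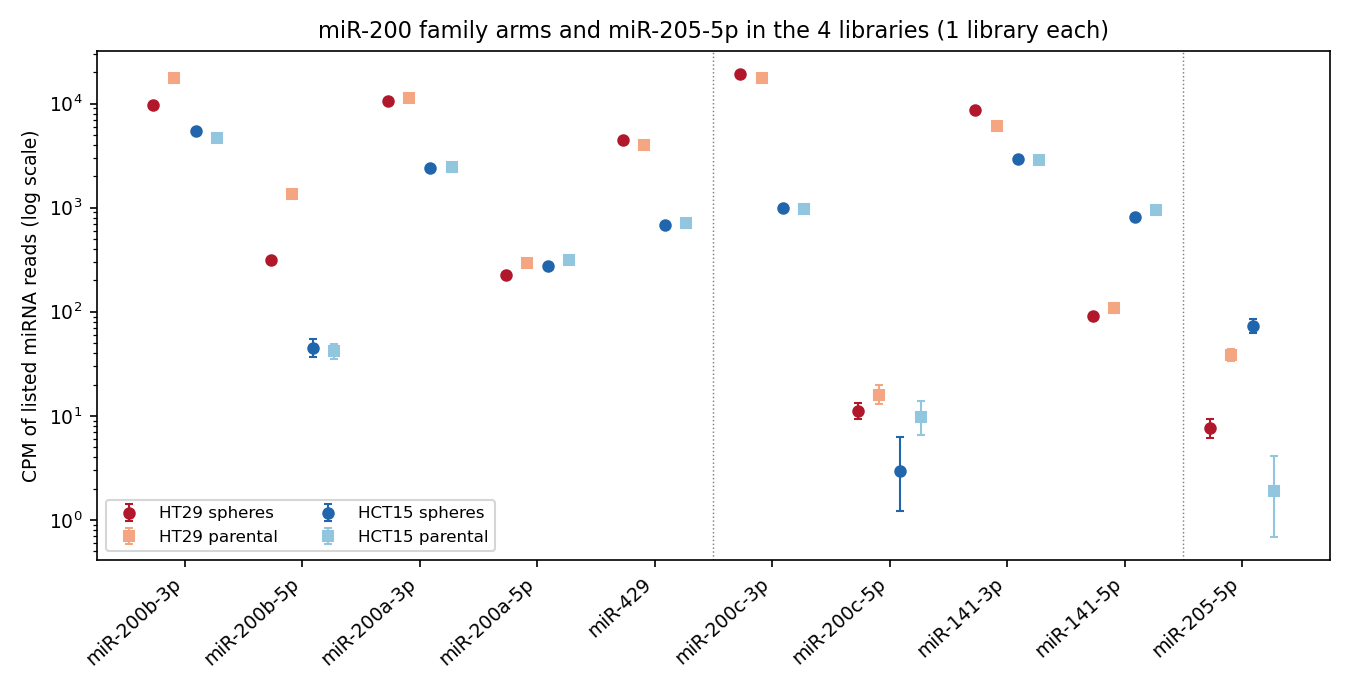
Level of each member in CPM (log axis) in HT29 spheres, HT29 parental cells, HCT15 spheres and HCT15 parental cells, with exact 95% counting intervals. The 5 family guide arms lie between 681 and 19197 CPM in every library, while miR-205-5p lies between 1.88 and 73.4 CPM and has its highest level in HCT15 spheres and its lowest in HCT15 parental cells.

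The ratios of the members were set beside those of all miRNAs that averaged 10 CPM or more over the libraries of a line, 361 in HT29 and 332 in HCT15. All 10 members reached that mean in HT29 and 9 in HCT15, where miR-200c-5p did not and miR-205-5p did so through its spheres alone. In HT29, miR-205-5p reached it through parental cells alone, with 7.58 CPM in spheres and 38.2 CPM in parental cells. It is 1 of the 2 members counted below as 2-fold lower in HT29. The median ratio of the 10 members was 0.28 in HT29, where that of all miRNAs was -0.06. In HCT15 these medians were 0.35 and 0.05. In HT29, 1 of 10 members was at least 2-fold higher in spheres, where 12.7% of all 361 miRNAs were, and 2 were at least 2-fold lower, where 18% of all were. In HCT15, 1 of 10 was at least 2-fold higher, where 9.34% of all 332 were, and 1 at least 2-fold lower, where 5.72% were. The lower one was miR-200c-5p, which is not among the 332. With so few members these counts do not set them apart from the background. With total counts the 2-fold higher and lower miRNAs numbered 16 and 127 in HT29, against 46 and 65 with TMM, and 19 and 52 in HCT15, against 31 and 19 with TMM. With upper quartile scaling they numbered 64 and 50 in HT29 and 43 and 9 in HCT15. A ratio above 0 was found for 7 of 10 members in HT29, where 48.2% of all miRNAs had one, and for 9 of 10 in HCT15, where 53% had one. With total counts it was found for 3 of 10 members in HT29, where 25.5% of all had one, and for 5 of 10 in HCT15, where 33.1% had one. With the other 3 scalings the members' counts were 7 and 9, as with TMM.

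**Figure D2:**
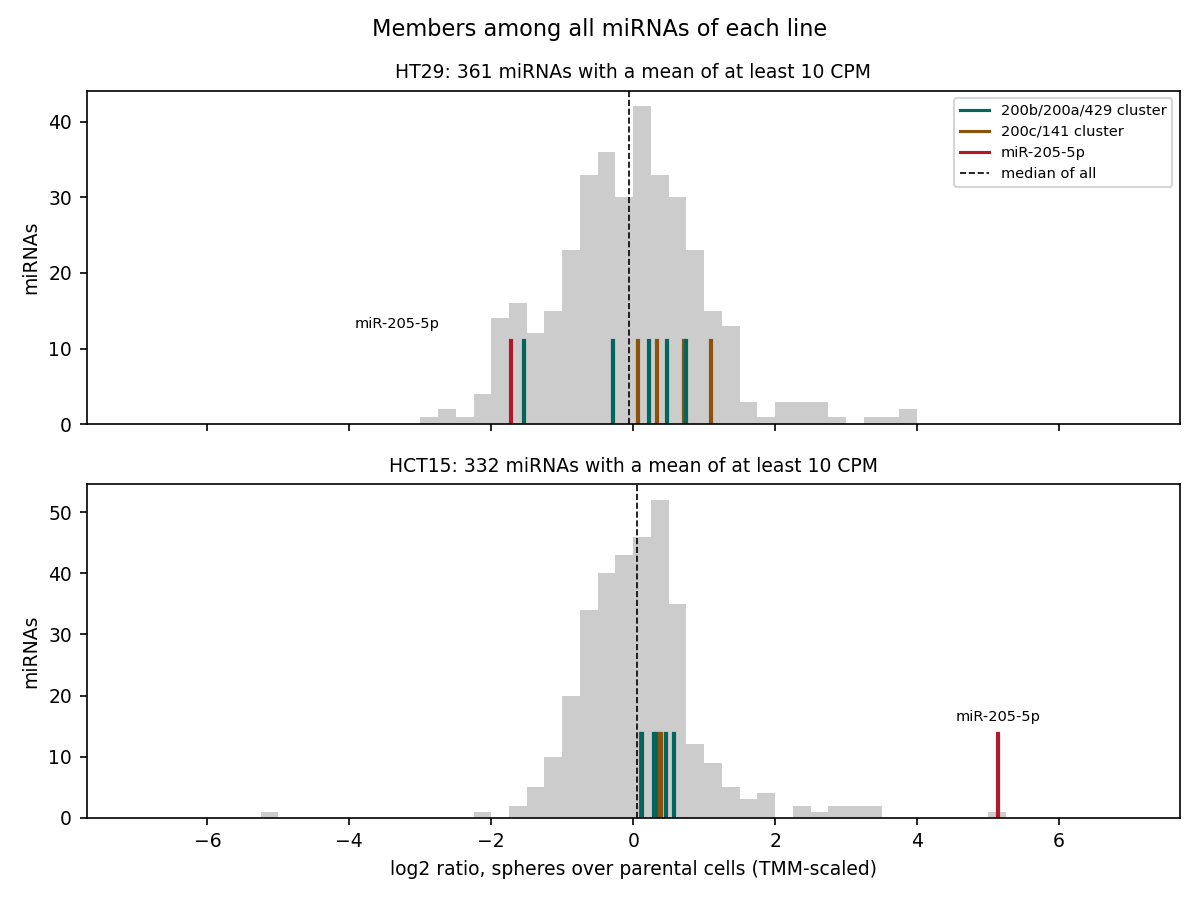
Log2 ratios of spheres over parental cells for all miRNAs that averaged 10 CPM or more in the line, 361 in HT29 (top) and 332 in HCT15 (bottom), as grey histograms in steps of 0.25, with members as coloured lines (10 in HT29, and 9 in HCT15, where miR-200c-5p did not reach that mean) and the median of all dashed. The family arms sit close to the bulk in HCT15 and spread wider in HT29, and miR-205-5p is to the left in HT29 and at the far right in HCT15.

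The guide arms of the seed AAUACUG did not move together in HT29. miR-200c-3p, often the most abundant family member in epithelial cells, was at 19197 CPM in HT29 spheres and 17473 CPM in HT29 parental cells, and at 993 CPM in HCT15 spheres and 972 CPM in HCT15 parental cells. Its log2 ratio was 0.72 in HT29 (interval 0.71 to 0.73) and 0.38 in HCT15 (0.30 to 0.46). With total counts these values were 0.14 and 0.03. miR-200b-3p, which has the same seed, was at 9645 CPM in HT29 spheres and 17628 CPM in HT29 parental cells, and at 5442 CPM in HCT15 spheres and 4633 CPM in HCT15 parental cells. Its ratio was -0.29 in HT29 (-0.30 to -0.27) and 0.58 in HCT15 (0.55 to 0.62). It was thus lower in spheres in HT29 and higher in HCT15, under each of the 5 scalings compared. With upper quartile scaling the HT29 value was -0.06. miR-429, the third carrier of this seed, was at 4417 and 3970 CPM in HT29 spheres and parental cells and at 681 and 709 CPM in those of HCT15. Its ratio was 0.74 in HT29 and 0.29 in HCT15, and the HCT15 value turned to -0.06 with total counts.

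Of the guide arms with the seed AACACUG, miR-141-3p had the highest HT29 ratio of all members. It was at 8659 CPM in HT29 spheres and 6052 CPM in HT29 parental cells, and at 2960 CPM in HCT15 spheres and 2861 CPM in HCT15 parental cells. The ratio was 1.10 in HT29 (interval 1.08 to 1.12), rank 43 of 361 miRNAs, and 0.40 in HCT15 (0.35 to 0.44), rank 95 of 332. The HT29 value ranged from 0.52 to 1.32 over the scalings, so it was not 2-fold under each. With total counts the HCT15 value was 0.05. miR-200a-3p was at 10537 CPM in HT29 spheres and 11339 CPM in HT29 parental cells, and at 2400 CPM in HCT15 spheres and 2443 CPM in HCT15 parental cells. Its ratios of 0.48 in HT29 and 0.32 in HCT15 turned to -0.11 and -0.03 with total counts. Summed over arms, ratios for the seed AACACUG were 0.73 in HT29, where total counts gave 0.14, and 0.36 in HCT15, where they gave 0.015. For the seed AAUACUG they were 0.35 in HT29, where total counts gave -0.23, and 0.52 in HCT15, where total counts gave 0.17.

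**Figure D3:**
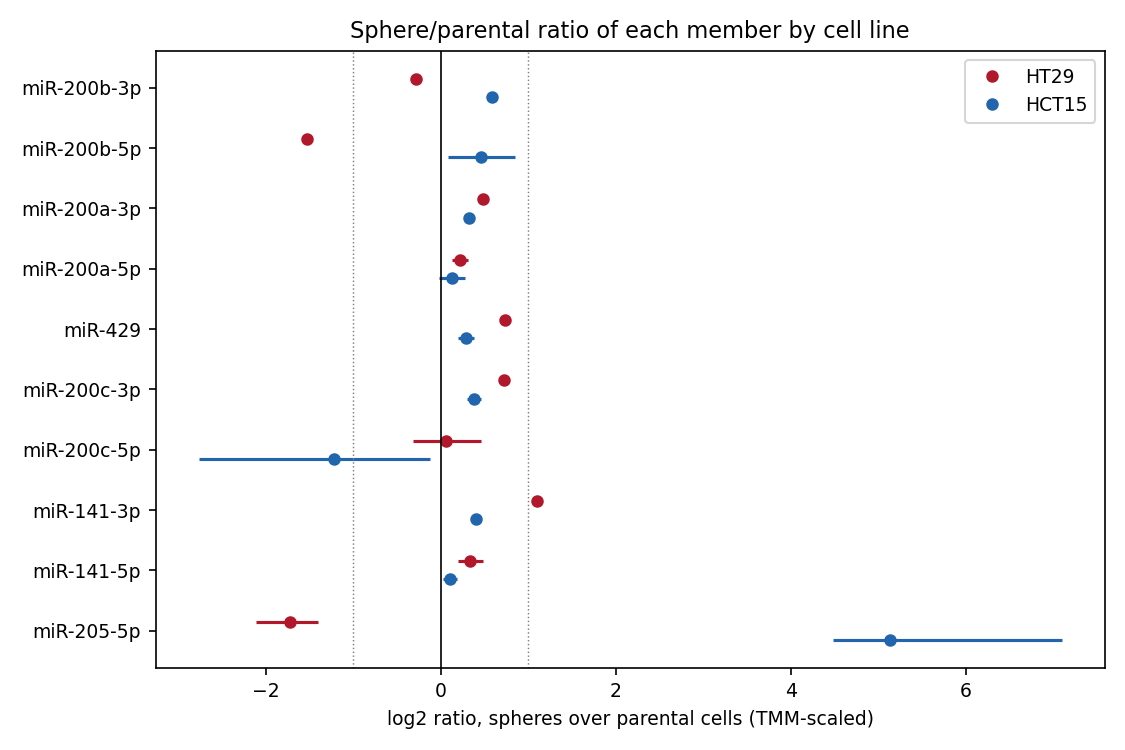
Log2 ratio of spheres over parental cells for each member in HT29 and HCT15 after TMM scaling, with exact 95% counting intervals as lines and 2-fold marked by dotted lines. miR-200b-3p, miR-200b-5p and miR-205-5p lie on opposite sides of 0 in the lines with intervals clear of 0, miR-200c-5p lies at 0.06 in HT29 with an interval across 0 and at -1.22 in HCT15, and miR-205-5p lies at -1.73 in HT29 and 5.13 in HCT15.

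The makeup of the family, which is a share within a library and needs no scaling, moved further in HT29 than in HCT15. The cluster of miR-200c and miR-141 gave 52.7% of family reads in HT29 spheres (interval 52.5 to 52.8) and 40.6% in HT29 parental cells (40.4 to 40.8). In HCT15 it gave 35.0% in spheres (34.5 to 35.6) and 37.1% in parental cells (36.6 to 37.6). The larger cluster was therefore that of miR-200c and miR-141 in HT29 spheres and that of miR-200b, miR-200a and miR-429 in the other 3 libraries. Within the family, miR-200c-3p took 36.2% in HT29 spheres and 30.0% in HT29 parental cells, and miR-200b-3p took 18.2% in HT29 spheres and 30.3% in HT29 parental cells. miR-200a-3p kept close to the same share in all 4 libraries, with 19.8% and 19.5% in HT29 spheres and parental cells and 17.6% and 18.9% in those of HCT15. In HCT15 the leading arm was miR-200b-3p, with 40.0% in spheres and 35.8% in parental cells, and miR-200c-3p took 7.30% in spheres and 7.51% in parental cells.

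**Figure D4:**
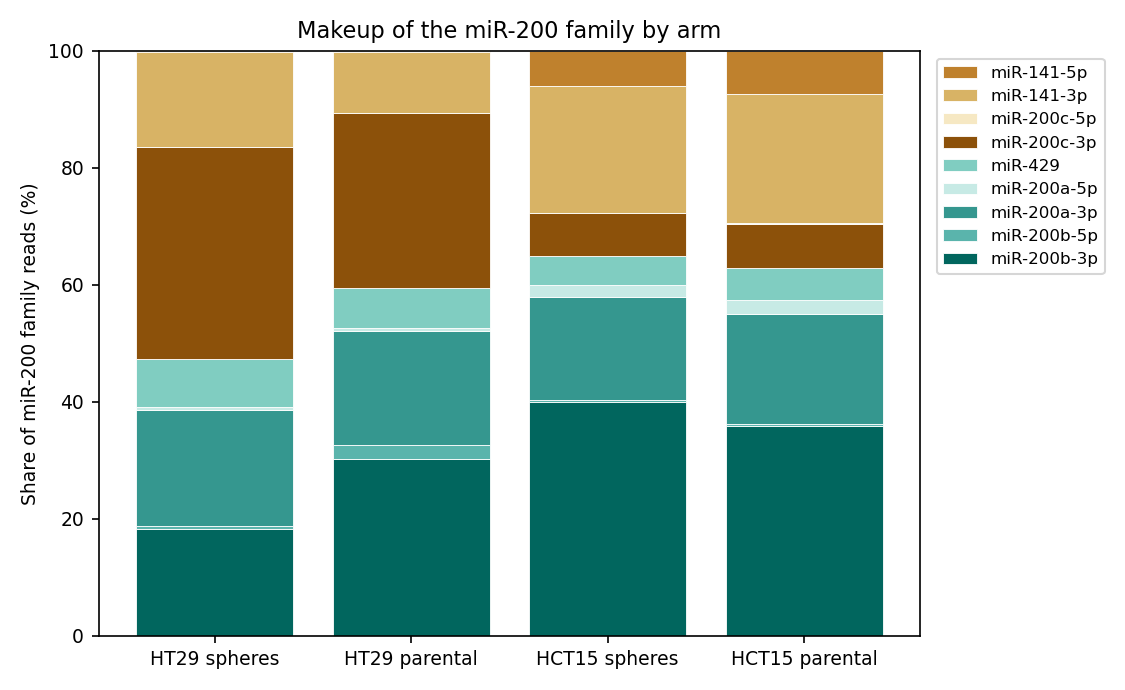
Share of miR-200 family reads (%) held by each of the 9 arms in the 4 libraries, with arms of the cluster of miR-200b, miR-200a and miR-429 in greens and arms of the cluster of miR-200c and miR-141 in browns. The brown part is 52.7% in HT29 spheres and 40.6% in HT29 parental cells, against 35.0% in HCT15 spheres and 37.1% in HCT15 parental cells.

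Order within a library also differed between the lines. In HT29 spheres miR-200c-3p led, followed by miR-200a-3p, miR-200b-3p, miR-141-3p and miR-429, and no neighbouring intervals overlapped. In HT29 parental cells miR-200b-3p and miR-200c-3p led with overlapping intervals, 17521 to 17735 CPM and 17367 to 17580 CPM, so their order was not detectable. In both HCT15 libraries miR-200b-3p led, followed by miR-141-3p and miR-200a-3p. In HCT15 parental cells miR-200c-3p (938 to 1007 CPM) and miR-141-5p (925 to 993 CPM) had overlapping intervals. By rank among all listed miRNAs, miR-200c-3p stood at 8 in HT29 spheres and 14 in HT29 parental cells, and at 69 in HCT15 spheres and 73 in HCT15 parental cells.

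Arms cut from 1 transcript did not show the same proportions in the values of the lines. HT29 was deposited as counts and HCT15 as RPKM, so a part of processing in any difference between lines was not tested. The same limit holds for the shares and order above and the arm quotients below. For each read of miR-141-3p there were 2.22 reads of its neighbour miR-200c-3p in HT29 spheres (interval 2.20 to 2.23) and 2.89 in HT29 parental cells (2.85 to 2.92). In HCT15 there were 0.336 in spheres (0.320 to 0.352) and 0.340 in parental cells (0.326 to 0.354). miR-200c-3p was thus the more abundant of the pair in HT29 and the less abundant in HCT15, where the intervals of the cultures overlapped. In the other cluster, reads of miR-200b-3p per read of miR-429 came to 2.18 in HT29 spheres and 4.44 in HT29 parental cells, and to 7.99 in HCT15 spheres and 6.53 in HCT15 parental cells. miR-200b-3p per read of miR-200a-3p came to 0.915 in HT29 spheres and 1.55 in HT29 parental cells, and to 2.27 in HCT15 spheres and 1.90 in HCT15 parental cells. The proportion of miR-200a-3p to miR-429 moved less, with 2.39 and 2.86 in HT29 spheres and parental cells and 3.52 and 3.44 in those of HCT15.

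Among the 5p arms, which are mostly the discarded strands, miR-200b-5p stood out in HT29. It was at 312 CPM in HT29 spheres and 1354 CPM in HT29 parental cells, and at 45.3 CPM in HCT15 spheres and 41.8 CPM in HCT15 parental cells. The ratio was -1.53 in HT29 (interval -1.59 to -1.48), rank 38 of 361 from the lowest, and 0.46 in HCT15 (0.08 to 0.85), where it rested on 105 and 133 reads. With total counts the HCT15 value was 0.12. miR-200a-5p, with the same seed AUCUUAC, was at 226 and 291 CPM in HT29 spheres and parental cells and at 273 and 317 CPM in those of HCT15. Its ratios of 0.22 and 0.13 turned to -0.37 and -0.22 with total counts. miR-141-5p was the arm with the widest gap between the lines in the other direction, at 91.8 and 109 CPM in HT29 spheres and parental cells and at 810 and 959 CPM in those of HCT15. The ratios of miR-141-5p were 0.33 and 0.11. miR-200c-5p was scarce, with 143 and 93 reads in HT29 spheres and parental cells and about 7 and 31 read equivalents in those of HCT15. Its ratio was 0.06 in HT29 (-0.32 to 0.46) and -1.22 in HCT15 (-2.77 to -0.13), and the HCT15 value was no longer 2-fold with a prior count of 10.

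The MIR200B hairpin is shown because its arms moved apart in HT29, with the 5p and then the 3p arm in capitals (chr1:1167104-1167198, plus strand, GRCh38.p14).
MIR200B: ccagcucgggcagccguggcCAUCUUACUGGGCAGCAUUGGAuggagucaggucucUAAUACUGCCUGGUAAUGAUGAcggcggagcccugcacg

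Per read of the 5p arm, this hairpin gave 30.9 reads of the 3p arm in HT29 spheres (interval 29.9 to 31.9) and 13.0 in HT29 parental cells (12.7 to 13.3). In HCT15 it gave 120 in spheres (99.1 to 147) and 111 in parental cells (93.5 to 133), with overlapping intervals. For miR-200a the quotient was 46.6 and 38.9 in HT29 spheres and parental cells and 8.80 and 7.69 in those of HCT15. For miR-141 it was 94.4 and 55.5 in HT29 spheres and parental cells and 3.65 and 2.98 in those of HCT15. For miR-200c it was 1718 and 1091 in HT29 spheres and parental cells, and in HCT15 340 and 99.8, the first of these on 7 reads of the 5p arm. The quotient was thus higher in spheres than in parental cells for each of the 4 hairpins in both lines. The intervals of spheres and parental cells overlapped for miR-200b and miR-200a in HCT15 and not for the other 6 of these 8 comparisons. Over all hairpins with both arms at a mean of 10 CPM or more, the quotient moved by a median log2 of 0.20 in HT29 (88 hairpins) and -0.05 in HCT15 (77 hairpins). A higher quotient in spheres was found for 53.4% of hairpins in HT29 and 46.8% in HCT15. A 2-fold move in either direction was found for 38.6% of hairpins in HT29 and 18.2% in HCT15, and the log2 move of 1.25 for miR-200b was matched or passed by 25 of the 88, itself included.

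**Figure D5:**
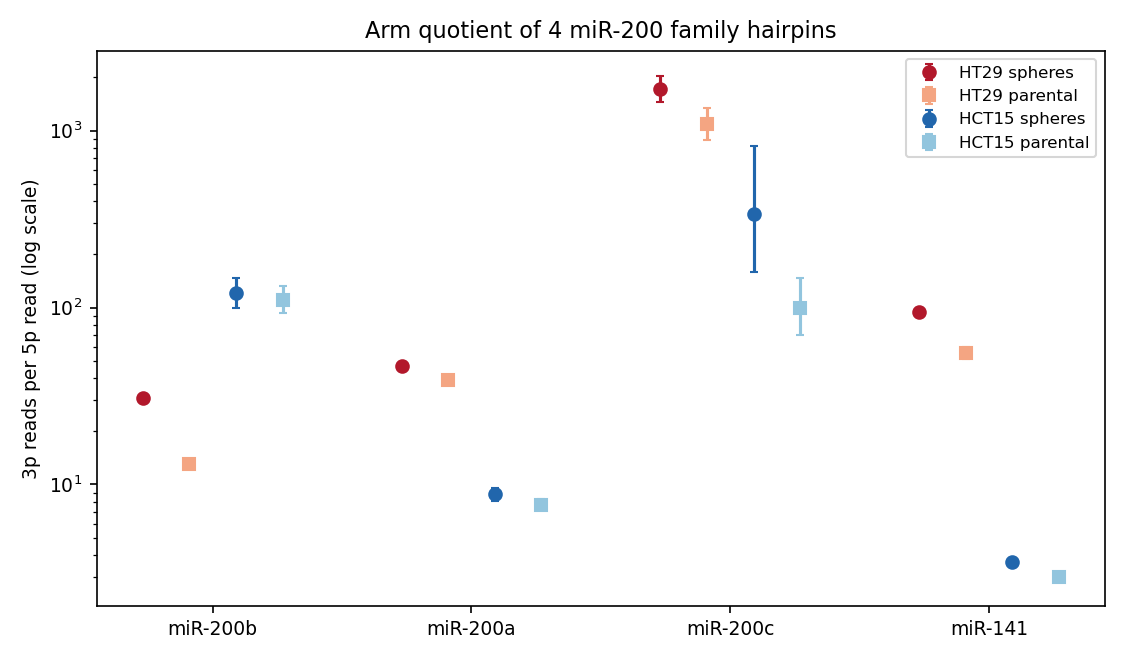
Reads of the 3p arm per read of the 5p arm (log axis) for the miR-200b, miR-200a, miR-200c and miR-141 hairpins in the 4 libraries, with exact 95% counting intervals. The quotient of miR-141 is 94.4 and 55.5 in HT29 spheres and parental cells against 3.65 and 2.98 in those of HCT15, while that of miR-200b is higher in HCT15.

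miR-205-5p moved the most of all members and in opposite directions in the lines. In HT29 it was at 7.58 CPM in spheres (97 reads) and 38.2 CPM in parental cells (222 reads). In HCT15 it was at 73.4 CPM in spheres (170 read equivalents) and 1.88 CPM in parental cells (6 read equivalents). The level of the miRNA was thus highest in HCT15 spheres and lowest in HCT15 parental cells, with both HT29 libraries between them. The log2 ratio was -1.73 in HT29 (interval -2.11 to -1.40) and 5.13 in HCT15 (4.48 to 7.10), or 35.1-fold. The HCT15 ratio was the highest of the 332 miRNAs of that line, and it ranged from 4.83 to 5.35 over the scalings. With a prior count of 10 reads it was 4.05. miR-205-5p reached the mean of 10 CPM in HCT15 through its spheres alone, so with 6 reads in parental cells only a high ratio could enter that ranking.

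The MIR205 hairpin is shown with the 5p and then the 3p arm in capitals (chr1:209432133-209432242, plus strand, GRCh38.p14), because nearly all its reads came from the 5p arm.
MIR205: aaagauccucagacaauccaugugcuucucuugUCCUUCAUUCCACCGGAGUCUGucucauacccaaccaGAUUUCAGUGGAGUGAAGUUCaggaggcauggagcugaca

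The other arm, miR-205-3p, had 2 reads in HT29 spheres and 1 in HT29 parental cells and was listed at 0 in both HCT15 libraries. The other squamous epithelium markers are given beside miR-205-5p, and their part in its result was not tested. miR-203, a miRNA of differentiating epidermis that is listed there as miR-203a, was at 2037 CPM in HCT15 spheres and 1720 CPM in HCT15 parental cells (ratio 0.59), and miR-944 was at 0 in both. In HT29, miR-203 was at 9776 CPM in spheres and 5815 CPM in parental cells (ratio 1.33), and miR-944 was at 2.03 and 1.38 CPM.

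Across both lines, with the lines as the replicates, no member passed the test. With the line as a block, limma called 0 of 377 miRNAs at an adjusted p of 0.05 (0%). At an unadjusted p of 0.05 it called 21 (5.57%), and 0 of them were members. All 10 members were tested, 8 with a positive and 2 with a negative log2 fold change, and the median of the members was 0.31, against -0.04 for all 377. The lowest p of a member was that of miR-141-3p (log2 fold change 0.75, SE 0.36, limma adjusted p = 0.757), which was higher in spheres in both lines. The fold change of miR-205-5p was 1.68 with an SE of 1.73 (limma adjusted p = 0.786), with ratios of opposite sign in the lines. A p that misses the threshold does not show that a member was the same in spheres and parental cells. The fit had 1 residual degree of freedom, to which limma added 2.85 prior degrees of freedom drawn from all tested miRNAs.

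Profiles nearest to that of the summed family over the 4 libraries, by Euclidean distance of centred log2(CPM + 1) among the 231 miRNAs that averaged 50 CPM or more, were those of miR-93-5p (distance 0.13), let-7b-5p (0.20), miR-135b-3p (0.33), let-7c (0.40) and miR-29c-3p (0.44). miR-93-5p was at 8987 and 10604 CPM in HT29 spheres and parental cells and at 2474 and 2496 CPM in those of HCT15. The summed family in HT29 was at 3.90 times the HCT15 level in spheres and 4.50 times in parental cells. The distances therefore rest largely on the gap between the lines. Values of each line were made and scaled apart, and a part of processing in that gap was not tested. Of the members themselves, miR-200a-3p lay nearest to the summed family (0.13) and miR-141-5p farthest (5.20). The sum contains the family arms, and miR-200a-3p alone gave 17.6% to 19.8% of it, so its nearness is partly built in.

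Other epithelial miRNAs are set beside the family here. Of a list of 12, 10 averaged 10 CPM or more in HT29, and 4 of these were at least 2-fold higher in spheres, with 0 lower by that much. Of all 361 miRNAs, 12.7% and 18% were. The 4 were miR-375, an endocrine and epithelial miRNA (ratio 2.02), miR-215 (1.63) and its relative miR-192-5p (1.36), both of gut epithelium, and miR-203 (1.33). With total counts miR-192-5p and miR-203 were at 0.78 and 0.75 and no longer 2-fold. In HCT15 the ratios of the 4 were -0.12 for miR-375, -0.06 for miR-215, 0.58 for miR-192-5p and 0.59 for miR-203. The highest HCT15 values over the scalings were 0.12 for miR-375 and 0.19 for miR-215. In HCT15, 10 of the 12 reached that mean, and 0 were 2-fold higher or lower, where 9.34% and 5.72% of all 332 were. The median ratio of those that reached it was 0.45 in HT29 and 0.37 in HCT15, against -0.06 and 0.05 for all miRNAs. With total counts ratios are lower by about 0.58 in HT29 and 0.35 in HCT15.

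By level, miR-182-5p, of the miR-183 cluster of sensory organs and epithelia, was at 17947 and 18937 CPM in HT29 spheres and parental cells and at 86655 and 57901 CPM in those of HCT15 (ratios 0.51 and 0.93). miR-194-5p, which is cut from transcripts shared with miR-192-5p or miR-215, was at 15240 and 20136 CPM in HT29 spheres and parental cells and at 77.7 and 81.6 CPM in those of HCT15 (ratios 0.18 and 0.27). miR-101-3p, which represses the chromatin enzyme EZH2, was at 10569 and 20799 CPM in HT29 spheres and parental cells and at 1542 and 1509 CPM in those of HCT15 (ratios -0.39 and 0.38). Like miR-200b-3p, it had ratios of opposite sign in the lines.

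miRNAs linked to the mesenchymal transition or invasion had medians of 0.52 in HT29 and 0.54 in HCT15, against -0.06 and 0.05 for all miRNAs. The shift with total counts applies to these medians too. All 10 of the list averaged 10 CPM or more in both lines. In HT29, 2 of them reached 2-fold upwards and 1 downwards, near the 12.7% and 18% of all miRNAs. The higher ones were miR-373-3p (ratio 2.67) and miR-21-5p (1.06, and 0.48 with total counts), and the lower one was miR-31-5p (-1.49). In HCT15, 2 reached 2-fold upwards and 0 downwards, where 9.34% and 5.72% of all did. These were miR-31-5p (1.14, and 0.79 with total counts) and miR-9-5p, which represses E-cadherin (1.04, interval 0.31 to 1.91, and 0.71 with total counts). miR-9-5p rested on 32 and 26 read equivalents in HCT15 spheres and parental cells, or 13.8 and 8.16 CPM, and reached the mean of 10 CPM through its spheres. miR-10b-5p, linked to metastasis in breast cancer, was at 13648 and 20603 CPM in HT29 spheres and parental cells and at 96016 and 77976 CPM in those of HCT15 (ratios -0.01 and 0.65). miR-222-3p was at 1603 and 3656 CPM in HT29 spheres and parental cells and at 19479 and 20496 CPM in those of HCT15 (ratios -0.61 and 0.28). In the limma fit 0 of the 9 epithelial miRNAs tested and 0 of these 10 passed an adjusted p of 0.05, while 2 (miR-182-5p and miR-192-5p) and 1 (miR-21-5p) passed 0.05 unadjusted. Of all 377 miRNAs, 21 (5.57%) passed 0.05 unadjusted. miR-203 has another name in the HCT15 files and was not tested.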

How the data were processed

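Per the labels' protocols, libraries were made with the TruSeq kit for small RNA from spheres and parental cells of HT29 and HCT15. For HT29 the authors deposited read counts per mature miRNA, and for HCT15 they deposited RPKM, both on miRBase R19 per the file headers. The submitters' processing notes name hg19. Which aligner and trimming were used, and what was done with reads that fit several miRNAs, is not given in the sources used here.

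Despite its name, the deposited RPKM rose with mature length. The commonest lowest value, taken as 1 read, was 0.157 at 20 nt, 0.162 at 22 nt and 0.166 at 24 nt in HCT15 parental cells. In HCT15 spheres the commonest low value at 22 nt, 0.527, was taken as 2 reads. The read equivalents and intervals of HCT15 spheres rest on that choice. Values were divided by the step of their length (that of 22 nt for other or unknown lengths) to give read equivalents. Of 149 values under 12 reads in HCT15 spheres and 401 in HCT15 parental cells, 72.5% and 70.3% were whole within 0.02 reads, where 4% would be if fractions were uniform. The equivalents and the HCT15 intervals are therefore approximate. Just 4 miRNAs stood at 1 read in HCT15 spheres and 99 in HCT15 parental cells, and whether single reads were dropped was not tested.

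CPM is reads scaled to 1000000 listed miRNA reads. With a count of 0, as many as 3 reads are allowed. That is 0.234 CPM in HT29 spheres, 0.517 CPM in HT29 parental cells, 1.29 CPM in HCT15 spheres and 0.942 CPM in HCT15 parental cells. Log2 ratios of spheres over parental cells used TMM factors from the 1882 names in all 4 files (edgeR 4.0.16) and a prior count of 2. Intervals are exact 95% intervals (conditional binomial for ratios, Clopper-Pearson for shares and levels). Without molecular identifiers on the reads, intervals and floors cover counting error only. Within a line there was 1 library per culture and no test. Across lines, limma 3.58.1 (R 4.3.3) compared spheres with parental cells on TMM-scaled log2(CPM + 1), with a mean-variance trend and the line as a block. It covered the 377 miRNAs that reached 10 CPM in 2 libraries or more, with Benjamini-Hochberg adjustment over all of them. The fit was tried on simulated counts with the same changes in both lines, a setting that does not cover changes that differ between lines. The labels do not say that cultures were repeated, so the residual spread is that between the 2 lines. limma moderated this spread with that of all tested miRNAs (2.85 prior against 1 residual degree of freedom). The SEs and p-values thus draw largely on other miRNAs. Other steps used Python 3.11.15 and scipy 1.17.1. Alternatives were other scalings, prior counts, pseudocounts, filters, block and trend.

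The members and lists were chosen with earlier results of these data known. Beside the 10 members, the naming rule took miR-205-3p, listed miRNAs with a member's seed, up to 4 miRNAs of each list that averaged 50 CPM or more, and the 5 profiles nearest to the summed family. miRNAs named beyond it for a count of 5 or fewer were chosen after their values were seen. Lists covered other epithelial miRNAs, miRNAs of the mesenchymal transition or invasion, and markers of colon epithelium, stroma, blood, endothelium and squamous epithelium.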

Additional observations from a re-analysis of the deposited data

Results flagged for a closer look

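For 3 members the ratio of spheres over parental cells had opposite signs in HT29 and HCT15 under each of the 5 scalings. With TMM their counting intervals lay on opposite sides of 0. The log2 ratio of miR-205-5p was -1.73 in HT29 and 5.13 in HCT15. That of miR-200b-5p was -1.53 in HT29 and 0.46 in HCT15, the latter 0.12 with total counts. That of miR-200b-3p was -0.29 in HT29 and 0.58 in HCT15, the former -0.06 with upper quartile scaling. With 1 library per culture the difference between the lines was not tested.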

How the results depend on the processing

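Scaling by total counts turned the HT29 log2 ratios of miR-200a-3p (-0.11), miR-200a-5p (-0.37), miR-200c-5p (-0.51) and miR-141-5p (-0.25), the HT29 member median (-0.31) and summed family (-0.13), and the HCT15 ratios of miR-200a-3p (-0.026), miR-200a-5p (-0.22), miR-429 (-0.059) and miR-141-5p (-0.24). It also turned the across-line fold changes of miR-200b-3p (-0.32), miR-200a-3p (-0.066), miR-200a-5p (-0.29) and miR-141-5p (-0.24), left 0 members 2-fold higher in HT29, and put the HCT15 member median at 0.0031 and summed family at 0.072. These shifts follow from the scaling factors, which act on all miRNAs of a library alike. With median-of-ratios factors, upper quartile scaling and TMM on 1 line alone, the HT29 member median was 0.29, 0.50 and 0.48 and the HT29 summed family 0.46, 0.67 and 0.66. In HCT15 the first and second of these gave medians of 0.56 and 0.60 and families of 0.63 and 0.67. A prior count of 10 left 0 members 2-fold lower in HCT15 and put miR-205-5p there at 4.05, against 5.13. A prior count of 0 was an alternative chosen after seeing the data. Without a filter on low values limma called 7 miRNAs across lines, 0 of them members, and without the line as a block it called 0. Values from 1 line alone put the median member fold change at 0.27 to 0.35. With 3p arms alone, miR-200c-3p and miR-141-3p gave 53.1% and 41.7% of family reads in HT29 spheres and parental cells and 31.7% and 33.0% in those of HCT15. Depth limits miR-200c-5p and miR-205-5p in HCT15, with 7 and 6 read equivalents in their lower libraries.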
